A study of Mus musculus with 9 samples.

Results

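The genes followed here are 32 genes of the p53 pathway, the tumour suppressor Trp53 itself and 31 genes known from textbooks as its targets or regulators. They were taken by symbol from a table of 38924 genes, and all 32 were matched and had enough counts to be tested in every comparison. The libraries came from adult mouse cardiac fibroblasts grown in culture, where the Cas9 nuclease was directed to the coding sequence of Gata4 or Tbx20, or was given guides with no target. The question put to the list was whether it differed between cells that received cutting guides and cells that received scrambled ones.

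The p53 protein is a transcription factor that is kept low by the ubiquitin ligase Mdm2 and its partner Mdm4. After a DNA break, kinases of the damage response modify p53 and Mdm2, p53 accumulates, and the genes it binds are transcribed more. Those genes stop the cell cycle (Cdkn1a, which encodes p21), promote cell death (Bax, Bbc3, Pmaip1, Fas), repair DNA (Xpc, Rrm2b) and switch p53 off again (Mdm2). Since p53 is controlled largely as a protein, its own transcript need not move when its targets do.

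All 9 libraries were made from cells of RosaCas9-EGFP mice on a C57BL/6 background, 8 to 10 weeks of age, so Cas9 and a green fluorescent protein were present in the control cells as well. Heart cells were cultured for 3 days, sorted as CD90-positive cells without CD45 or CD31, and replated. After 6 further days, at 80 to 90% confluency, they were transfected with guide RNAs in a lipid reagent. RNA was collected at a single time after transfection, so levels at earlier or later times were not measured. The control group received scrambled guides, the Gata4 KD group guides to Gata4, and the Tbx20 KD group guides to Tbx20, with 3 libraries in each group, lettered a, b and c. The labels tie no library to an animal, a culture or a day, so p-values measure only the spread between these libraries. The authors describe the 3 libraries of a condition as biological replicates. What separated them, and how much of their spread is technical, cannot be read from the labels. No library came from cells without Cas9 or without transfection, and whatever Cas9 or the reagent did to p53 targets in all groups cannot be told apart from their resting level. The share of cells that carried a cut was not analysed here.

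The guides decide which libraries could hold a targeted break, so they are shown with their places in the mouse genome (GRCm38, with exons from GENCODE M21). The protospacer is in lower case, and the capitals mark the neighbouring NGG motif that Cas9 needs, read from the transcript.
Gata4_sgRNA1: cagagagtgtgtcaattgtgGGG
Gata4_sgRNA3: gcaggactgggctgtcgaagGGG
Tbx20_sgRNA2: caaattccatgaactgggcaCGG
Tbx20_sgRNA3: gagctgctcgccagtaaaggGGG
NTC_sgRNA1: gcgaggtattcggctccgcg
NTC_sgRNA2: gctttcacggaggttcgacg
Gata4_sgRNA1 lies at chr14:63204711-63204730 on the minus strand, in coding exon 3 of a transcript with 7 exons. Gata4_sgRNA3 lies at chr14:63240581-63240600 on the plus strand, in coding exon 2. Tbx20_sgRNA2 lies at chr9:24770708-24770727 on the minus strand, in coding exon 2 of a transcript with 8 exons. Tbx20_sgRNA3 lies at chr9:24765732-24765751 on the plus strand, in coding exon 4. The 2 scrambled guides matched no annotated transcript exactly, and none of the 4 targeting guides matched a transcript of another gene. Sites outside transcripts were not searched.

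The p53 protein binds a sequence made of half-sites of 10 bases, and members of the list were searched for the half-site consensus (by name, a self-complementary motif that reads the same on both strands) in RefSeq promoter windows of GRCm38.p6, from 250 bases before to 50 after a gene's start. A window was given for 24 of the 32 genes, and 10 of these 24 (41.7%) held at least 1 half-site, against 2582 of 27025 genes with a window (9.55%). A pair of half-sites at most 13 bases apart was found in 1 member, Cdkn1a, and in 20 genes of the whole set (0.074%). The stretches of 4 members that are read closely in the results are printed here in the gene's own direction, with the half-sites in capitals.
Cdkn1a: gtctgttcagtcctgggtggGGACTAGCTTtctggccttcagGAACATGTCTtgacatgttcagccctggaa
Mdm2: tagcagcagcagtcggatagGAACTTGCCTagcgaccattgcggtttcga
Ccng1: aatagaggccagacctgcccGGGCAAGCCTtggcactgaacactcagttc
Trp53: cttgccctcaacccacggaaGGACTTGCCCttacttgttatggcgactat
The Cdkn1a stretch is chr17:29090886-29090957 on the plus strand, before the upstream of the gene's RefSeq starts. The Mdm2 stretch is chr10:117710915-117710964 on the minus strand, the Ccng1 stretch chr11:40755442-40755491 on the minus strand, and the Trp53 stretch chr11:69580264-69580313 on the plus strand. The other members with a half-site were Aen, Bax, Ei24, Polk, Rps27l and Sesn1. A match is a description of the letters in the window and was not tied to binding.

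The files hold RSEM expected counts, whole numbers that estimate how many reads came from each gene. The lowest total of a library was 31214828, the median 36270725 and the highest 41950397. Levels are given as CPM, a gene's counts relative to the library total after scaling with TMM factors over all 9 libraries, and the members' lowest count in any library was 88, for Perp. Markers of fibroblasts summed to 6567 to 10515 CPM in every library, while those of cardiomyocytes stayed below 1 CPM, with Nppa at 0 throughout. Leukocyte markers summed to 24.5 to 52.2 CPM and endothelial markers to 34.6 to 55.1 CPM. The 4 mesothelial markers summed to 18.1 to 37.6 CPM in control, 22.4 to 35.4 CPM in Tbx20 KD and 3.80 to 4.57 CPM in Gata4 KD. Their part in the p53 results was not tested. In bulk RNA, fewer cells of a type and less RNA per cell cannot be told apart.

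The targeted genes were checked first. Gata4 was at 166, 155 and 167 CPM in the controls and at 54.0, 46.7 and 65.5 CPM in Gata4 KD, where the log2 fold change was -1.55 (adjusted p = 0.00272, edgeR). Tbx20 was at 1010, 1276 and 720 CPM in the controls and at 320, 426 and 428 CPM in Tbx20 KD, with no overlap. Its log2 fold change was -1.35 (adjusted p = 0.748, edgeR), so the targeted gene itself did not pass the threshold in that comparison. It did pass in 3 of the 8 alternatives that keep all libraries. These were DESeq2 (adjusted p = 3.18e-08), the edgeR exact test (adjusted p = 2.38e-06) and edgeR with no filter on low counts (adjusted p = 0.0318). With 1 library left out, Tbx20 passed in 0 of 6 fits. A member with a change of that size and spread could have been missed in the Tbx20 KD comparison.

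No member of the p53 list passed in any comparison. When the 6 libraries with cutting guides were compared with the 3 controls in 1 fit, Cdkn1a was at 0.982-fold of control (95% interval 0.907 to 1.06), Mdm2 at 0.941-fold and Trp53 at 0.981-fold. Of the 32 members, 0 had an adjusted p under 0.05 (edgeR quasi-likelihood test, Benjamini-Hochberg adjustment over all 14782 genes tested). The same rule called 0.0338% of all genes. At an unadjusted p under 0.05, 1 member was lower and 0 higher, against 3.71% and 2.07% of all genes, and DESeq2 called 0 members and 0.532% of all genes. The median log2 fold change of the members was -0.03, and that of all genes was -0.01. In 0 members did the 6 libraries lie wholly above or below the controls, compared with 1.77% of all genes.

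The intervals describe how large a difference could have gone unseen, under a fit that gives all groups the same spread for a gene. In that comparison the 95% interval of all 32 members lay within 1.5-fold either way, as it did for 76.2% of all genes. The highest upper limit of any member was 1.38-fold, or 0.467 on the log2 scale. Spread was unequal for some members. The coefficient of variation of Trp53inp1 was 37.3% in control, 3.72% in Gata4 KD and 6.10% in Tbx20 KD. Without control b its upper limit was 0.507, so the limits may be too narrow for members that vary between controls.

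**Figure D1:**
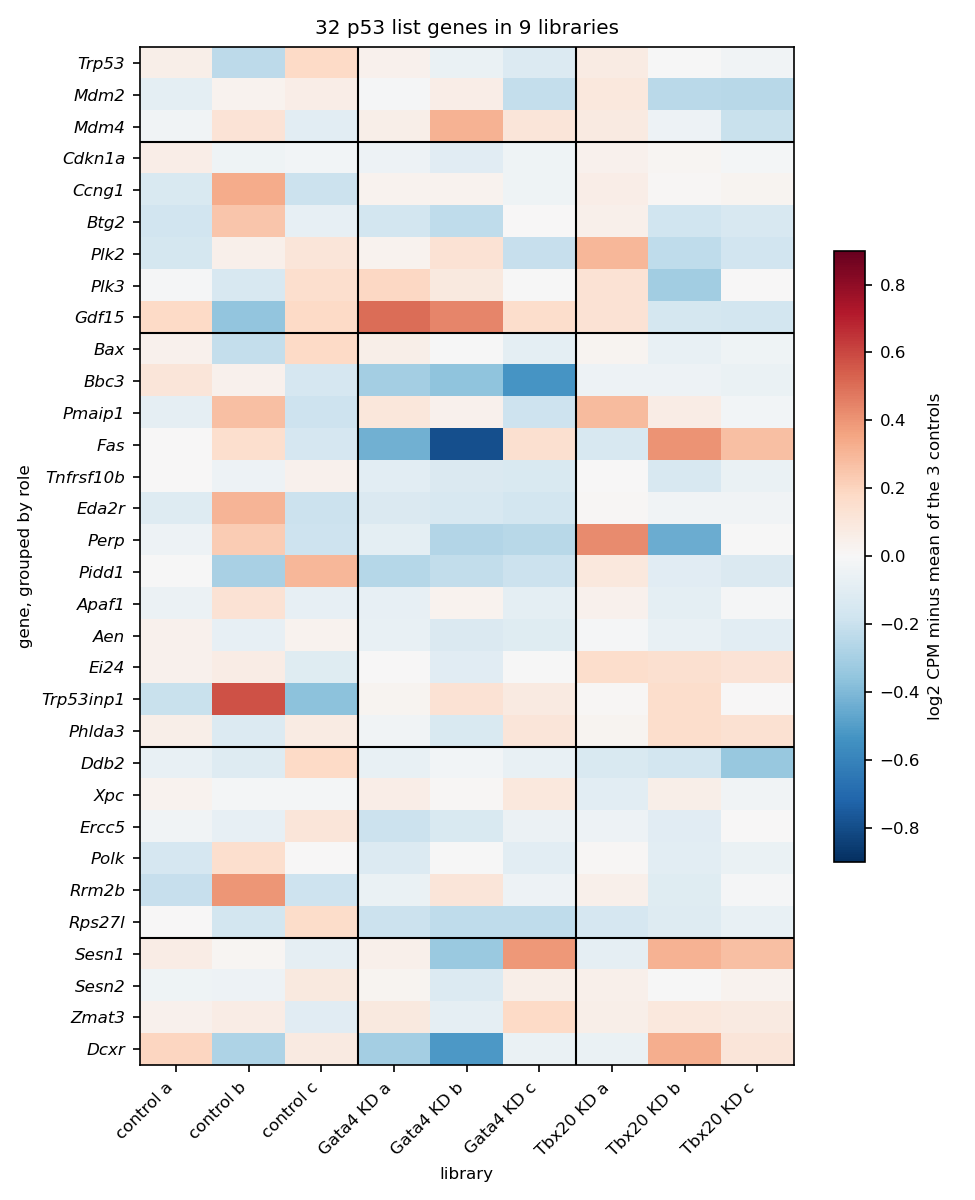
Log2 CPM of the 32 p53 list genes (rows, grouped by role with lines between the groups) in the 9 libraries (columns), each minus the mean of the 3 controls; red is higher and blue lower. The deepest blue is Fas in Gata4 KD b, at -0.79, and the deepest red Trp53inp1 in control b, at 0.57.

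The core of the pathway is Trp53, its ligase Mdm2, itself a p53 target, and Mdm4, which binds p53 and blocks its activity. Trp53 (chr11:69580359-69591873, plus strand) was at 153, 126 and 168 CPM in the controls, 152, 141 and 136 CPM in Gata4 KD and 156, 147 and 145 CPM in Tbx20 KD. The 3 groups overlapped, and the lowest and the highest of the 9 values were both control libraries. Mdm2 (chr10:117688875-117710758, minus strand) was at 307, 334 and 340 CPM in the controls, 324, 341 and 282 CPM in Gata4 KD and 349, 276 and 274 CPM in Tbx20 KD. Its group means were 327 ± 17.6, 316 ± 30.4 and 300 ± 43.0 CPM (SD, n = 3 each), and the lowest 2 values were in Tbx20 KD. Mdm4 averaged 39.9 CPM in control, 44.6 CPM in Gata4 KD and 38.4 CPM in Tbx20 KD. Adjusted p-values of the core genes were 0.964 to 0.988 in the comparison of both knockdowns with control (edgeR).

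The arrest group has 6 members, and Cdkn1a, the cyclin-dependent kinase inhibitor p21, is its best known. Cdkn1a (chr17:29090976-29100727, plus strand) was at 485, 454 and 459 CPM in the controls, 450, 433 and 453 CPM in Gata4 KD and 478, 472 and 459 CPM in Tbx20 KD. All 3 Gata4 KD values lay below the 3 control values, by a log2 fold change of -0.07 (95% interval -0.24 to 0.10, adjusted p = 0.867, edgeR). The whole range of Cdkn1a over the 9 libraries was 1.12-fold, the narrowest of the 32 members.

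Ccng1 encodes cyclin G1, which recruits a phosphatase that acts on Mdm2. Ccng1 (chr11:40748552-40755311, minus strand) was at 694, 962 and 669 CPM in the controls, 780, 780 and 744 CPM in Gata4 KD and 798, 772 and 776 CPM in Tbx20 KD. The 6 knockdown values lay between control b and the other 2 controls, so the SD was 162 CPM in control and 14.1 CPM in Tbx20 KD. Its log2 fold change was -0.00053 over both knockdowns (95% interval -0.23 to 0.23), and its sign changed with the fit.

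Gdf15, a secreted stress factor of the TGF-beta family, was at 12.6, 8.65 and 12.6 CPM in the controls, 15.8, 15.1 and 12.4 CPM in Gata4 KD and 12.2, 9.97 and 9.92 CPM in Tbx20 KD. Gata4 KD libraries a and b were above all other libraries and c was not. The remaining arrest genes, the antiproliferative factor Btg2 and the polo-like kinases Plk2 and Plk3, averaged 66.3, 227 and 16.4 CPM in control. In both knockdown groups their means were 60.3 to 61.8 CPM for Btg2, 225 to 226 CPM for Plk2 and 15.8 to 17.4 CPM for Plk3.

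**Figure D2:**
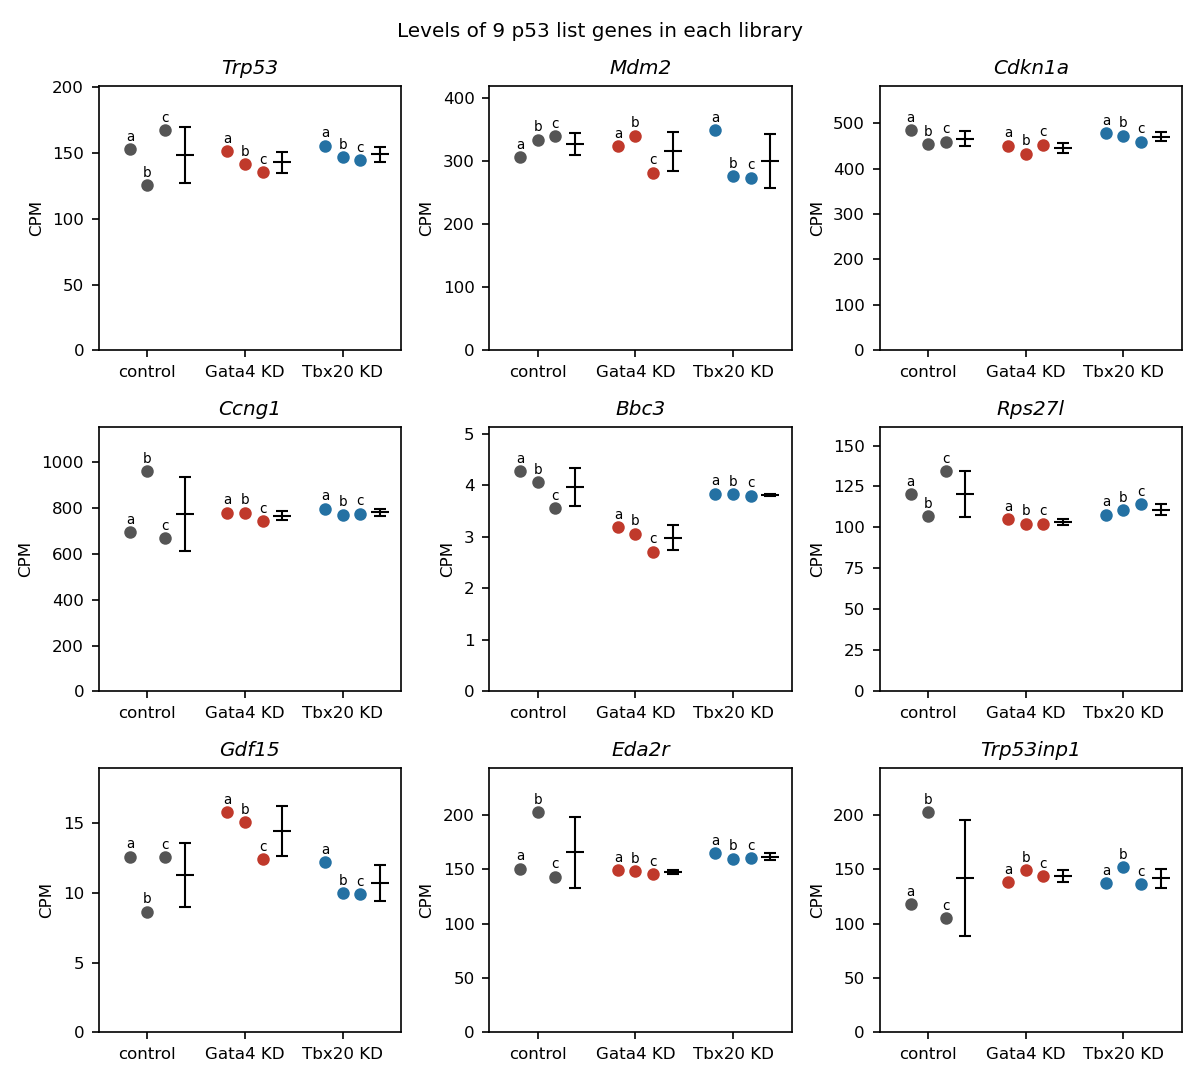
CPM (y axis, from 0) of 9 p53 list genes in each library, with groups on the x axis, replicate letters above the points, and the mean ± SD of 3 libraries in black. Cdkn1a lies between 433 and 485 CPM in all 9 libraries, and control b is the highest library for Ccng1, Eda2r and Trp53inp1.

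The death group holds 13 members, and none of them passed in either knockdown. In Gata4 KD against control 12 of the 13 had a log2 fold change below 0, as did 25 of all 32 members and 54.1% of all genes. The signs turned on single libraries, with 9 of the 13 below 0 without control b and 9 without Gata4 KD c. Bbc3 encodes Puma, a BH3-only protein that activates Bax at the mitochondrion. It was at 4.27, 4.06 and 3.56 CPM in the controls, 3.18, 3.06 and 2.71 CPM in Gata4 KD and 3.83, 3.82 and 3.79 CPM in Tbx20 KD. Every Gata4 KD value was below the other 6, and the counts behind them were 98 to 162 reads per library over all groups. Against control its log2 fold change in Gata4 KD was -0.41 (95% interval -0.78 to -0.05, adjusted p = 0.507, edgeR).

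Further members of the death group are given by group mean. Bax, which permeabilises the outer membrane, averaged 138 CPM in control, 136 CPM in Gata4 KD and 134 CPM in Tbx20 KD. Pmaip1, the BH3-only protein Noxa, averaged 34.8, 34.2 and 37.4 CPM in the same order. Perp, a membrane protein, was low at 3.29 to 3.88 CPM by group mean, with single libraries from 2.76 to 5.11 CPM, a 1.85-fold range. Apaf1, the scaffold of the apoptosome, averaged 101 to 105 CPM. The caspase-2 platform gene Pidd1 averaged 21.3 CPM in control, 18.0 CPM in Gata4 KD and 20.4 CPM in Tbx20 KD, with single libraries from 17.1 to 25.9 CPM, both of them controls.

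Death receptors were measured with Fas, Tnfrsf10b and Eda2r. Tnfrsf10b, the mouse TRAIL receptor, was at 106, 102 and 109 CPM in the controls, 99.0, 96.6 and 96.3 CPM in Gata4 KD and 106, 95.6 and 101 CPM in Tbx20 KD. Gata4 KD lay below control without overlap, by a log2 fold change of -0.12 (adjusted p = 0.715, edgeR). Eda2r, the receptor of ectodysplasin A2, was at 150, 202 and 143 CPM in the controls, 149, 148 and 145 CPM in Gata4 KD and 165, 160 and 160 CPM in Tbx20 KD. Control b was above every other library, and the 2 knockdown groups did not overlap each other. Fas was the most variable of the members, at 20.6, 22.8 and 18.5 CPM in the controls, 15.2, 11.8 and 22.8 CPM in Gata4 KD and 18.6, 27.2 and 24.8 CPM in Tbx20 KD. Its range over the 9 libraries was 2.30-fold, and all 3 groups overlapped.

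The last members of the death group are an exonuclease, an endoplasmic reticulum protein, a p53-inducible nuclear protein and a repressor of Akt signalling. Aen, the exonuclease, averaged 177 CPM in control, 165 CPM in Gata4 KD and 170 CPM in Tbx20 KD. Ei24, of the endoplasmic reticulum, was at 135, 138 and 122 CPM in the controls, 132, 122 and 131 CPM in Gata4 KD and 147, 146 and 143 CPM in Tbx20 KD. The 3 Tbx20 KD values were the highest of the 9, with a log2 fold change against control of 0.15 (95% interval -0.02 to 0.32) that did not pass the threshold. Phlda3, which blocks Akt at the membrane, was at 122, 108 and 123 CPM in the controls, 115, 107 and 126 CPM in Gata4 KD and 120, 131 and 129 CPM in Tbx20 KD, with overlap between all groups. Trp53inp1 was at 118, 203 and 105 CPM in the controls, 138, 149 and 144 CPM in Gata4 KD and 137, 152 and 137 CPM in Tbx20 KD, again between control b and the other controls. Trp53inp1, like Fas, was picked out after its values were seen.

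In the repair group the 5 DNA repair and nucleotide genes Ddb2, Xpc, Ercc5, Polk and Rrm2b stand beside Rps27l, a ribosomal protein paralogue induced by p53. Rps27l was at 120, 107 and 134 CPM in the controls, 105, 102 and 102 CPM in Gata4 KD and 108, 111 and 114 CPM in Tbx20 KD. Its log2 fold change over both knockdowns was -0.17 (95% interval -0.33 to -0.01, adjusted p = 0.813, edgeR), and it was the member behind the single unadjusted p under 0.05 there. Of the 75-base windows of its transcripts 5.45% also occur in another gene, and the highest such share among members was 6.84%, for Bax. Ddb2, which recognises ultraviolet damage, was at 7.57, 7.33 and 9.01 CPM in the controls, 7.56, 7.79 and 7.58 CPM in Gata4 KD and 7.21, 7.08 and 6.25 CPM in Tbx20 KD. Tbx20 KD lay below control without overlap, by a log2 fold change of -0.21 (95% interval -0.49 to 0.08).

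Xpc, the damage sensor of nucleotide excision repair, averaged 22.9 to 24.2 CPM over the groups, and the endonuclease gene Ercc5 52.2 to 57.1 CPM. Polk, a translesion polymerase, was at 82.0 to 101 CPM in single libraries. Rrm2b, the p53-induced ribonucleotide reductase subunit, was at 17.4, 26.3 and 17.5 CPM in the controls, 19.2, 21.6 and 19.4 CPM in Gata4 KD and 20.6, 18.5 and 19.8 CPM in Tbx20 KD. Both knockdown groups lay between control b and the other controls. In the metabolism and RNA group, the sestrins Sesn1 and Sesn2, which restrain mTORC1, averaged at most 7.24 CPM and 57.2 to 58.8 CPM. Zmat3, an RNA-binding zinc finger protein, averaged 155 to 163 CPM and the carbonyl reductase Dcxr 11.8 to 15.7 CPM.

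Each knockdown was also compared with control on its own, with the same 3 control libraries in both. In Gata4 KD against control 0 of 32 members passed, where the rule called 0.38% of 14468 genes. At an unadjusted p under 0.05, Bbc3 and Rps27l were lower and 0 members were higher, against 4.64% and 3.9% of all genes, and DESeq2 called 0 members and 1.89% of all genes. The groups did not overlap for 4 members, all lower (Cdkn1a, Bbc3, Tnfrsf10b and Rps27l), beside 7.62% of all genes in that direction. The median log2 fold change was -0.05 for the members and -0.02 for all genes. The largest upper limit was that of Gdf15, at 1.67-fold, and 27 of 32 intervals lay within 1.5-fold either way, against 67.4% of all genes.

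In Tbx20 KD against control 0 members passed, where the rule called 0.00687% of 14547 genes, and 0 members had an unadjusted p under 0.05, against 2.69% of all genes. DESeq2 called 0 members and 0.0688% of all genes. Ei24 was higher and Ddb2 lower without overlap, beside 2.8% and 3.94% of all genes. The medians were -0.02 for the members and -0.00 for all genes. All 32 intervals lay within 1.5-fold either way, against 74.1% of all genes, and the highest upper limit was 1.48-fold.

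**Figure D3:**
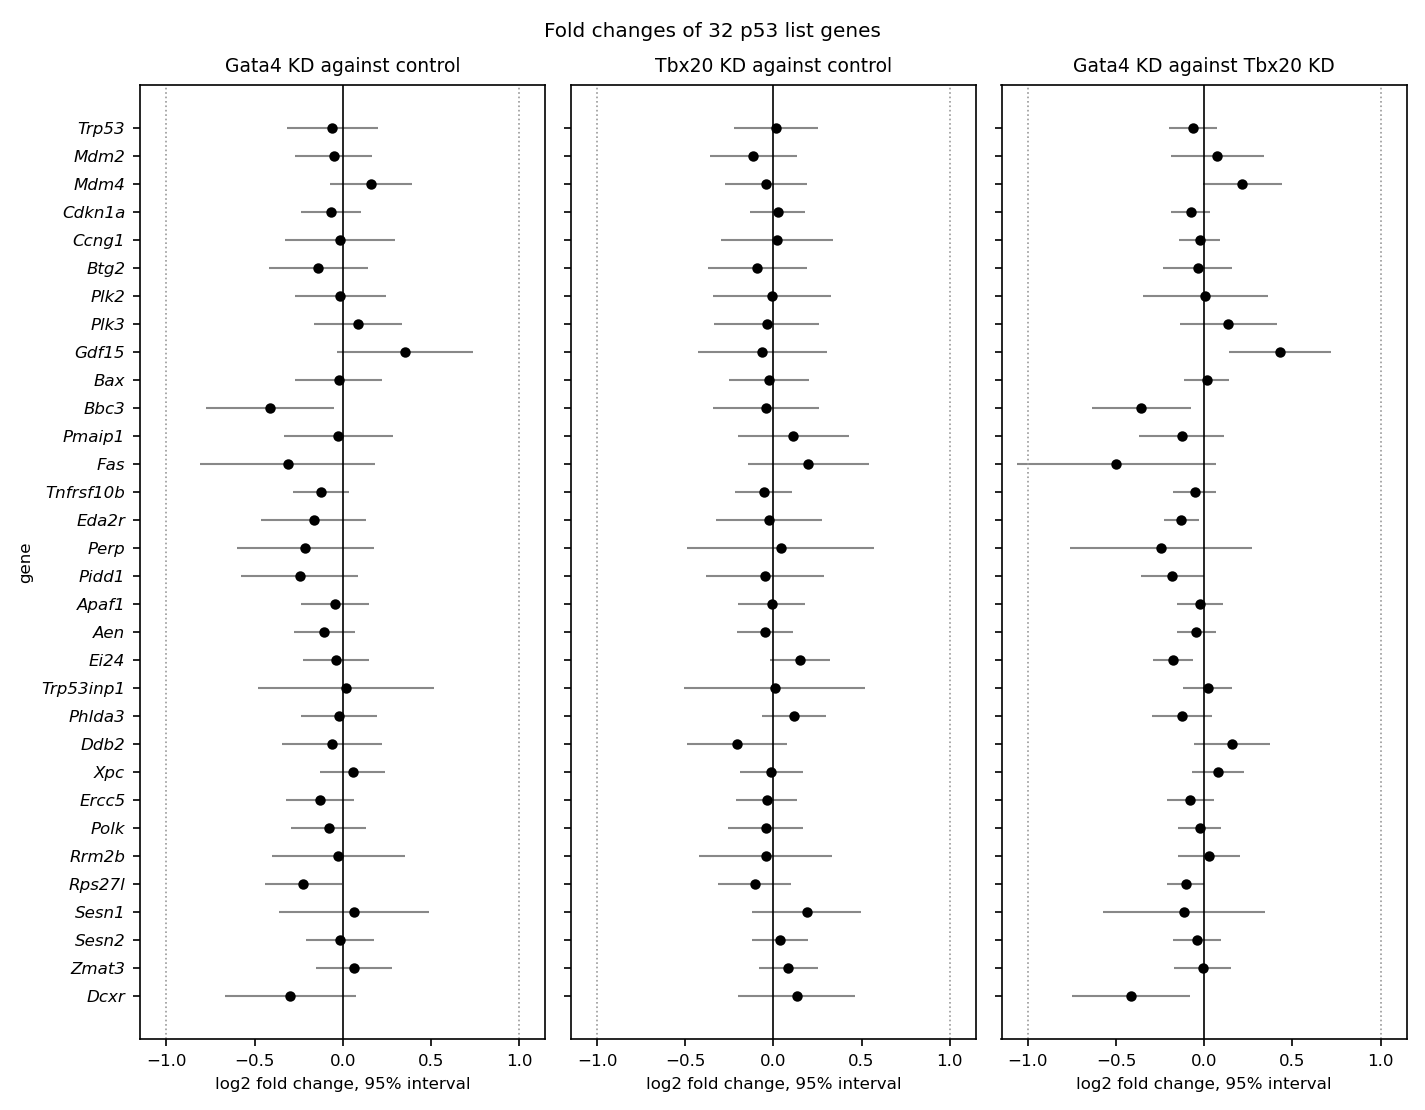
Log2 fold change (x axis) of the 32 p53 list genes (y axis) in 3 comparisons of 3 against 3 libraries; points are edgeR estimates, bars are 95% intervals, and dotted lines mark 2-fold. All upper limits lie below 2-fold, and Bbc3 and Gdf15 are the members farthest from 0 in Gata4 KD against control. The lowest lower limit, that of Fas in Gata4 KD against Tbx20 KD, is -1.06 and crosses the 2-fold line.

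The comparison of Gata4 KD with Tbx20 KD sets cutting guides against cutting guides and uses no control library. Here too 0 of 32 members passed, where the rule called 1.44% of 14477 genes. At an unadjusted p under 0.05, 1 member was higher in Gata4 KD (Gdf15) and 5 were lower (Bbc3, Eda2r, Pidd1, Ei24 and Dcxr), against 9.21% and 7.52% of all genes. Groups did not overlap for 2 members higher and 6 lower, beside 12.2% and 10.8% of all genes. The 95% interval lay within 1.5-fold either way for 27 members, against 71.3% of all genes. The member with the smallest p was Ei24, lower in Gata4 KD by a log2 fold change of -0.18 (95% interval -0.29 to -0.06, adjusted p = 0.138, edgeR), and DESeq2 called it (adjusted p = 0.0439) along with 5.7% of the genes it gave an adjusted p. Gdf15 was 1.35-fold higher in Gata4 KD (95% interval 1.10 to 1.64, adjusted p = 0.150), and Eda2r was at 0.913-fold (adjusted p = 0.190). Bbc3 was at 0.781-fold (adjusted p = 0.195).

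Without Gata4 KD library c, 2 members passed in this comparison, Gdf15 with a log2 fold change of 0.52 (adjusted p = 0.0380) and Fas with -0.80 (adjusted p = 0.0473), and 5.47% of all genes were called. With all 6 libraries Fas had a log2 fold change of -0.50 (adjusted p = 0.351). Gata4 KD c was also the library of its group with the highest Egr1, at 76.9 CPM against 31.4 and 30.5 CPM, and its part in the difference was not tested. Egr1 is an immediate early transcription factor that responds within minutes to serum and handling. It was picked from a list of 10 immediate early genes after its values were seen. Nr4a1, of the same list, was no higher in Gata4 KD c than in b (values below).

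In the comparisons with control, leaving out control b raised the number of genes at an unadjusted p under 0.05 more than leaving out any other library. Control c was more often extreme, highest of the 9 for 8 members and lowest for 6, against 7 and 4 for control b. Over all genes these shares were 21.7% and 18.9% for control c and 16.3% and 15.2% for control b. The level in control b over the mean of controls a and c was 1.81-fold for Trp53inp1, 1.51-fold for Rrm2b, 1.41-fold for Ccng1, 1.38-fold for Eda2r, 1.32-fold for Pmaip1, 1.29-fold for Btg2 and 1.27-fold for Perp. In the other direction control b was at 0.687-fold for Gdf15, 0.731-fold for Pidd1, 0.748-fold for Dcxr, 0.783-fold for Trp53 and 0.798-fold for Bax. Members of the list, Trp53 itself among the lower ones, thus stood on both sides in this library. Over 1.2-fold above the other controls were 7 members, 21.9% of 32, against 20.3% of all genes, and as far below were 5 members, 15.6%, against 21.9% of all genes. Egr1 was at 88.7 CPM in control b and at 22.3 and 23.6 CPM in the other controls. Nr4a1 differed far less between the controls (values below). What set control b apart was not tested.

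Without control b, the comparison of both knockdowns with control called 1 member. Trp53inp1 was then 1.28-fold higher in the knockdowns, a log2 fold change of 0.35 (95% interval 0.20 to 0.51, adjusted p = 0.0410, edgeR), with all 6 knockdown libraries at 137 to 152 CPM above controls a and c at 118 and 105 CPM. In the same fit 348 genes passed, 2.32% of those tested, so that 1 of 32 members is close to the share of all genes. With the 3 controls its log2 fold change was 0.01 (adjusted p = 0.998). Ccng1 had a log2 fold change of 0.18 (adjusted p = 0.0766) and Rps27l one of -0.25 (adjusted p = 0.0519) without control b. Cdkn1a stayed at -0.04 and Mdm2 at -0.07. At an unadjusted p under 0.05 were 3 members higher and 4 lower, against 10.8% and 11% of all genes. Groups did not overlap for 3 members higher (Ccng1, Trp53inp1 and Rrm2b) and 3 lower (Tnfrsf10b, Aen and Rps27l), beside 9.94% and 11.4% of all genes.

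Each knockdown was compared with controls a and c alone as well. Without control b, Tbx20 KD against control had 6 members higher and 1 lower at an unadjusted p under 0.05, against 10.6% and 6.82% of all genes, where with 3 controls it had 0. The 6 were Ccng1, Pmaip1, Eda2r, Ei24, Trp53inp1 and Rrm2b, and the 1 was Rps27l. The median log2 fold change was then 0.02 for the members and 0.00 for all genes. Gata4 KD against control had 3 members higher (Mdm4, Ccng1 and Trp53inp1) and 3 lower (Pidd1, Rps27l and Dcxr), against 10.8% and 10.2% of all genes, with a median of -0.02 for both. In neither comparison did a member have an adjusted p under 0.05 (edgeR), beside 0.0338% of all genes in Tbx20 KD and 1.29% in Gata4 KD. These members were named after their values were seen.

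**Figure D4:**
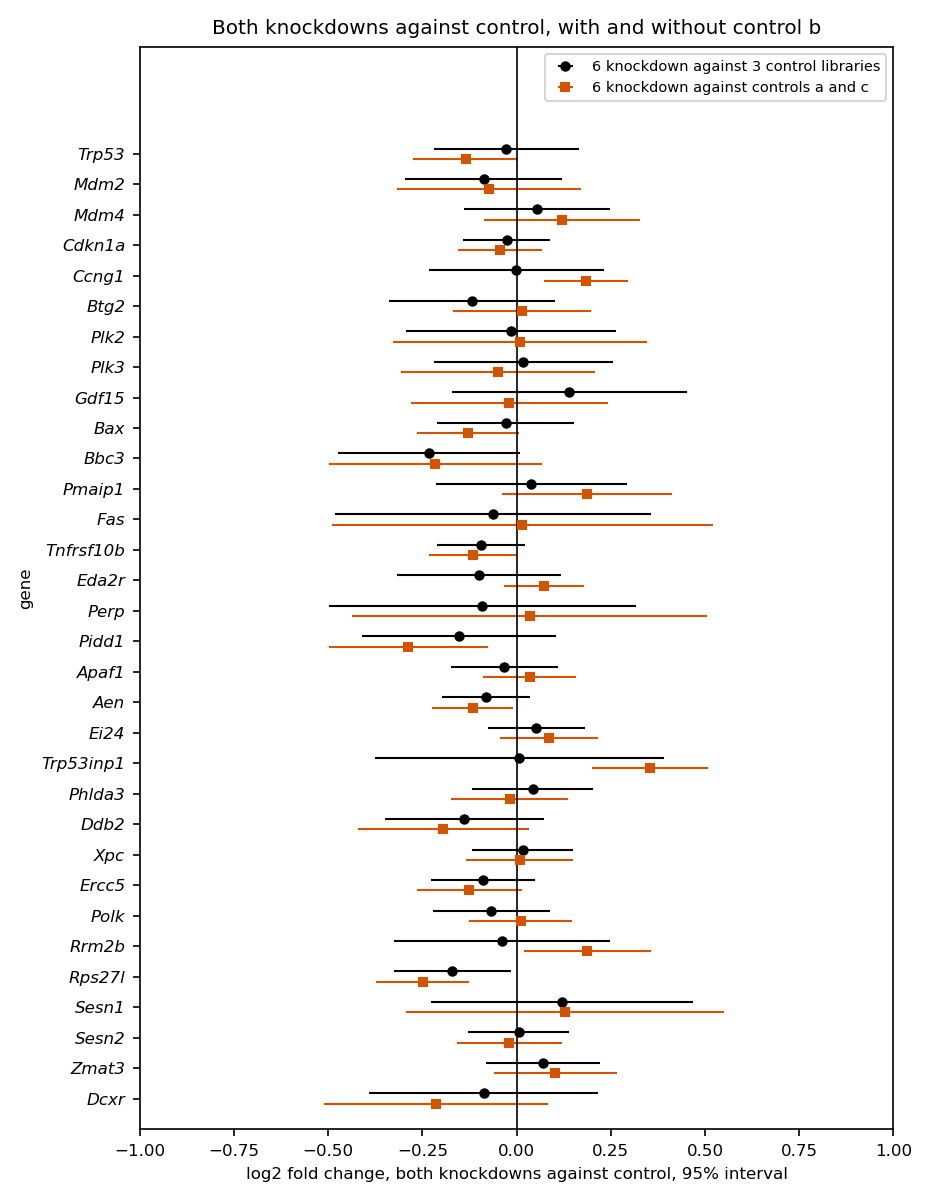
Log2 fold change (x axis) of the 32 p53 list genes (y axis) in both knockdowns against control, with all 3 controls (black circles) and without control b (orange squares); bars are 95% intervals from edgeR. Leaving out control b moves Trp53inp1 from 0.01 to 0.35 and Ccng1 from -0.00053 to 0.18, while Cdkn1a and Mdm2 move little.

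The spread inside a group was smaller in the knockdowns. The median coefficient of variation of the members was 10.3% in control, 6.03% in Gata4 KD and 5.23% in Tbx20 KD, beside 11.4%, 8.73% and 6.98% for all genes. In control the extremes were Xpc at 1.96% and Trp53inp1 at 37.3%.

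Levels could be ordered between genes only per length of merged exons. On that scale, CPM per kilobase averaged over the 9 libraries, Ccng1 was the highest at 221, followed by Rps27l at 137, Cdkn1a at 130, Bax at 86.3, Phlda3 at 77.0 and Mdm2 at 61.8. Trp53 itself came eighth at 36.3. The lowest were Perp at 1.88, Sesn1 at 1.70 and Bbc3 at 1.69. The libraries of neighbours in this order overlapped in 27 of 31 pairs. The 4 neighbours that were apart in all libraries were Ccng1 from Rps27l, Cdkn1a from Bax, Plk2 from Trp53 and Xpc from Mdm4.

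**Figure D5:**
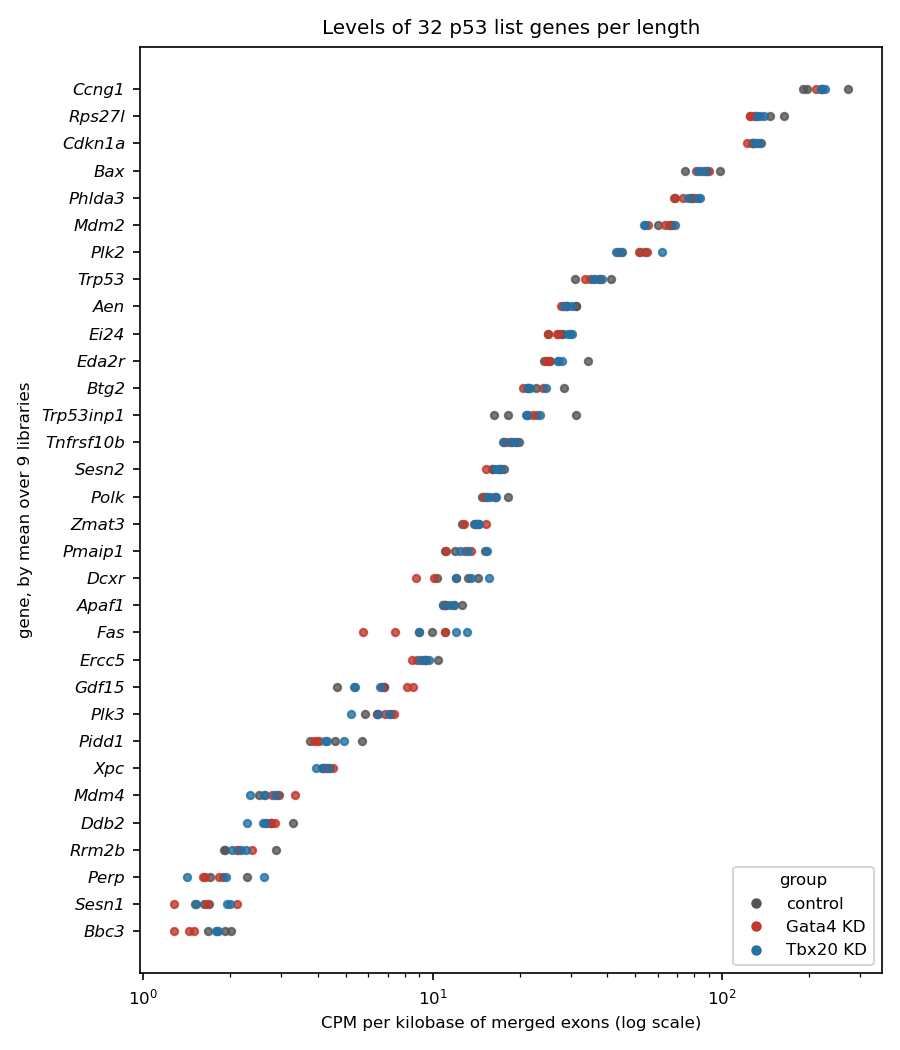
CPM per kilobase of merged exons (x axis, log scale) of the 32 p53 list genes (y axis, ordered by the mean of 9 libraries); each point is 1 library, coloured by group. Means run from 1.69 for Bbc3 to 221 for Ccng1, and the points of the 3 groups are mixed for most genes.

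Neighbouring parts of the pathway were read from further lists, and counts are for both knockdowns against control unless said otherwise. Of 20 further p53 targets, 0 passed in any of the 4 comparisons. The one with the smallest p was Ppm1d, the phosphatase Wip1 that turns the damage response off, at 24.8, 29.2 and 28.4 CPM in the controls, 21.4, 21.7 and 18.5 CPM in Gata4 KD and 27.5, 26.7 and 26.1 CPM in Tbx20 KD. The Gata4 KD values were the 3 lowest, and the log2 fold changes were -0.42 in Gata4 KD against control (adjusted p = 0.212) and -0.38 against Tbx20 KD (adjusted p = 0.0616, edgeR). DESeq2 called the latter (adjusted p = 0.00326). Of 15 regulators and relatives of p53, 13 were tested, Trp63 and Trp73 being too low, and 0 passed; Hipk2, a kinase that modifies p53, had a log2 fold change of -0.15 (adjusted p = 0.938).

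Of 23 genes that sense or join DNA breaks 0 passed in any comparison, and Parp1, which binds breaks, had a log2 fold change of -0.17 (adjusted p = 0.863, edgeR). The 18 cell cycle genes that p21 lowers through the DREAM and RB complexes were also without a call. Their median log2 fold change was -0.09, and that of all genes was -0.01. Below 0 were 16 of the 18, against 55.2% of all genes, and 8 of the 18 without control c or 9 without Gata4 KD c. Mcm5, a subunit of the replicative helicase, had the smallest p, with -0.15 (adjusted p = 0.952). None of 12 genes of the integrated stress response passed, where Atf3, a stress-induced repressor, had -0.35 (adjusted p = 0.839).

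Of 10 immediate early genes 0 passed in both knockdowns against control. In Gata4 KD against control and in Gata4 KD against Tbx20 KD 1 of the 10 passed, where 0.38% and 1.44% of all genes did. It was Nr4a1, an orphan nuclear receptor induced by many stimuli, at 19.6, 26.1 and 24.0 CPM in the controls, 36.1, 42.3 and 42.2 CPM in Gata4 KD and 23.4, 11.9 and 16.0 CPM in Tbx20 KD. It rose in Gata4 KD by 0.79 on the log2 scale against control (adjusted p = 0.0493) and by 1.23 against Tbx20 KD (adjusted p = 0.0464, edgeR). Both calls were near the threshold. Against control the call was kept without control b (adjusted p = 0.0241) and lost without each of the other 5 libraries in turn (adjusted p = 0.0980 to 0.204, edgeR). It was also lost with CPM above 1 as the filter (adjusted p = 0.0511) and with all 9 libraries in 1 fit (adjusted p = 0.132, edgeR). Against Tbx20 KD it was kept without Gata4 KD c or Tbx20 KD a (adjusted p = 0.0317 and 0.0110) and lost without each of the other 4 (adjusted p = 0.125 to 0.221) and with library size alone (adjusted p = 0.0513, edgeR). Among the markers, mesothelial Lrrn4 fell by 3.38 on the log2 scale in Gata4 KD against control (adjusted p = 0.00272, edgeR). Of the 3 mesothelial markers tested there, 2 were lower and 1 higher. Endothelial Kdr was higher in Gata4 KD than in Tbx20 KD by 0.90 (adjusted p = 0.0258, edgeR). The 5 endothelial markers did not move together in that comparison, with 3 higher and 2 lower and log2 fold changes from -0.48 to 0.90. The Kdr call was kept without Gata4 KD c (adjusted p = 0.0144) and lost without each of the other 5 libraries in turn (adjusted p = 0.0528 to 0.142, edgeR).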

How the data were processed

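Gene expression was measured by RNA sequencing (75-base single-end reads, poly-A selected) in 9 libraries, 3 per group, grouped by the guide RNA in the labels. The authors trimmed reads by quality and estimated abundances with RSEM and Bowtie2 on GRCm38 with strand. The submitters' processing notes name mm9 instead. Gene IDs and guide sites were looked up on GRCm38 only, so their matches cannot tell which build the reads were aligned to. The deposited unit is expected counts per gene, as whole numbers. The labels name no batch. Symbols and positions came from GENCODE M21 (37607 of 38924 IDs, and the rest held 0.262% of counts).

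Each comparison was fitted on all genes in R 4.3.3 with edgeR 4.0.16 (filterByExpr, TMM, glmQLFit, glmQLFTest, no covariate), Benjamini-Hochberg adjustment and a threshold of 0.05. Groups of 3 libraries were fitted in pairs, and both knockdowns against control in 1 fit of 9. Fold intervals are 95% and take the same spread in all groups of a fit. Log2 CPM used a prior count of 2. Alternatives were DESeq2 1.42.0, limma-voom 3.58.1, an exact test, library size alone, no filter, CPM above 1 in at least 2 libraries, all 9 libraries in 1 fit, the replicate letter as a block, and leaving out each library. The procedure was tested on simulated data.

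The members and lists were chosen with earlier results of these data known. Named with every library were Trp53, Mdm2, Cdkn1a and Ccng1 and, per comparison, the 3 members with the smallest p. From other lists the genes past the threshold were named, or else the one with the smallest p over both knockdowns. Fas, Trp53inp1, Egr1, Rprm and the alternatives of genes outside the list were added after seeing the data. Same-letter libraries of different groups correlated at -0.17 to 0.255 in their deviations from group means, and libraries with different letters at -0.385 to 0.347. With 3 libraries a group, such correlations cannot show whether letters mark a shared preparation. The labels name none, so letters were not taken to pair libraries.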

Additional observations from a re-analysis of the deposited data

How the results depend on the processing

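The count of members past the threshold was 0 under every alternative, with 3 exceptions. In Gata4 KD against Tbx20 KD it was 1 (Ei24) with DESeq2, and leaving out 1 library gave 0 to 2. Over both knockdowns, leaving out 1 library gave 0 to 1. With the replicate block it was 0 in all 4 comparisons, while the genes called overall numbered 5, 2, 7 and 101, against 55, 1, 5 and 208 without it. The block also ended the calls of Nr4a1 in Gata4 KD against control (adjusted p = 0.118) and against Tbx20 KD (adjusted p = 0.0827), and that of Kdr against Tbx20 KD (adjusted p = 0.0574). For the 12 members named by rule, 351 of 360 log2 fold changes kept sign and side of the threshold under the alternatives that keep all libraries, 8 changed sign and 1 was newly called. Ccng1 changed sign in Gata4 KD against control, to 0.00547 with limma-voom and 0.00552 with the replicate block. Over both knockdowns it became 0.00972 with DESeq2, 0.00578 with library size alone, 0.0023 without a filter, 0.00614 with CPM above 1, 0.0192 with limma-voom and 0.0131 with the replicate block. Outside that count, Trp53inp1 became -0.00223 in Tbx20 KD against control with all 9 libraries in 1 fit and -0.00987 in the direct comparison with library size alone.

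Leaving out 1 library changed the sign in 32 of 324 values of these 12 members. The ranges include Trp53inp1, which is outside that count. In Gata4 KD against control the ranges were -0.166 to 0.0355 for Trp53, -0.11 to 0.0486 for Mdm2, -0.11 to 0.171 for Ccng1, -0.115 to 0.0368 for Ddb2, -0.0805 to 0.0371 for Phlda3, -0.258 to 0.00735 for Eda2r and -0.159 to 0.364 for Trp53inp1. In Tbx20 KD against control they were -0.0861 to 0.113 for Trp53, -0.070 to 0.217 for Ccng1, -0.112 to 0.00808 for Bbc3, -0.214 to 0.0251 for Gdf15, -0.114 to 0.157 for Eda2r and -0.166 to 0.363 for Trp53inp1. Over both knockdowns they were -0.135 to 0.067 for Trp53, -0.0443 to 0.0179 for Cdkn1a, -0.0958 to 0.185 for Ccng1, -0.019 to 0.245 for Gdf15, -8.89e-05 to 0.0871 for Ei24, -0.0179 to 0.0842 for Phlda3, -0.192 to 0.0727 for Eda2r, -0.168 to 0.354 for Trp53inp1. In the direct comparison Trp53inp1 ran from -0.00773 to 0.070. The cause of these changes was not tested. The number of libraries, 3 a group, limits the precision.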
